A study of Mus musculus with 13 samples.

Results

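The embryonic globin genes Hbb-y, Hbb-bh1 and Hba-x, the theta-like globin gene Hbq1b, and Bcl11a, Sox6 and Zbtb7a, which encode transcription factors of the globin switch, were described in sorted mouse fetal liver erythroid cells with and without ADAR1, the enzyme that edits adenosine to inosine in double-stranded RNA. Members were taken by name from a list of 8 genes, and 7 of the 8 were measured by a probe set with 1 gene symbol, out of 19938 genes tested in all. The eighth, Ahsp, which encodes a chaperone of alpha globin, was not analysed here. Each of the 7 genes had 1 such probe set.

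RNA from E14.5 fetal liver was hybridised to 13 arrays, 1 for each sorted cell sample. Every embryo carried an Epor-Cre knock-in allele (ki/+) on a background labelled C57JB6, so the controls expressed Cre too. Knockout embryos were Adar1 fl/- and control embryos Adar1 fl/+. Cre from the erythropoietin receptor locus acts in erythroid cells, so that in the knockout other fetal liver cells keep 1 floxed allele. The knockout gave 3 arrays of Ter119- CD71+ cells (embryos 1, 10 and 11) and 2 of Ter119+ CD71+ cells (embryos 10 and 11). Control embryos 2, 13 and 15 gave 3 arrays of each of these populations, and embryos 13 and 15 also gave 2 arrays of Ter119+ CD71med cells, a population with no knockout array. Ter119 is a surface marker gained by maturing erythroid cells, and CD71 is the transferrin receptor, which is lost as they mature. The R26 EYFP reporter allele was ki/+ in every control and in embryo 1 of the knockout, and +/+ in its embryos 10 and 11. In Ter119+ CD71+ cells the Adar1 and R26 EYFP genotypes therefore cannot be told apart by these arrays alone. In Ter119- CD71+ cells only the array of embryo 1 tells them apart. Every knockout difference fitted with R26 EYFP as a covariate therefore depends on that 1 array. The design describes each sample as coming from 1 mouse, so the arrays of 1 group are separate embryos, while arrays of different populations can share an embryo.

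Red cells of the early embryo arise in the yolk sac as primitive erythroblasts, which transcribe the embryonic beta-like genes Hbb-bh1 and Hbb-y and the embryonic alpha-like gene Hba-x. Definitive erythroblasts of the fetal liver mainly transcribe the adult alpha and beta globin genes. BCL11A, SOX6 and ZBTB7A (also called LRF) are known repressors of embryonic and fetal beta-like globin genes. BCL11A and ZBTB7A act with the NuRD complex, which remodels nucleosomes and removes acetyl groups from histones.

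The promoters of Hbb-y, Hba-x and Hbq1b are shown because BCL11A is known to bind TGACCA. In addition, Hbq1b differed in its order of group means from Hbb-y and Hba-x, which shared theirs. The sequences are the 150 bases before the start of each gene from RefSeq (GRCm38.p6), where 6 of the 7 genes had an entry. Hbb-bh1 had none. Capitals mark TGACCA, the CACCC box bound by KLF factors, and GATAA bound by GATA factors, on either strand. Hbb-y lies at chr7:103853208-103853357 on the minus strand, Hba-x at chr11:32276450-32276599 on the plus strand, and Hbq1b at chr11:32286814-32286963 on the plus strand.
Hbb-y: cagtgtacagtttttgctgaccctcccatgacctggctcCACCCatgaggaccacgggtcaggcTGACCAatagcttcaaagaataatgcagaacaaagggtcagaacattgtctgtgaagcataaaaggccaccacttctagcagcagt
Hba-x: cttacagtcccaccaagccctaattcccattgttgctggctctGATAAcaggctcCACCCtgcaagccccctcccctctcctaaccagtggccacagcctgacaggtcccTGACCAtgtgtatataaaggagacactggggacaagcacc
Hbq1b: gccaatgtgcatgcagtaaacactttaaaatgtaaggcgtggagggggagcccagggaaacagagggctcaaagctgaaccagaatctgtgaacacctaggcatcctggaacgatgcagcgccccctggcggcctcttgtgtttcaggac

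TGACCA lay 86 to 81 bases before the start of Hbb-y and 40 to 35 bases before that of Hba-x, and 6.99% of 32851 promoters of the same length held it on either strand. CACCC lay 111 to 107 bases before the start of Hbb-y and 95 to 91 bases before that of Hba-x, and was found in 37.4% of promoters. GATAA, found in 13.3%, lay 107 to 103 bases before the start of Hba-x. The CCAAT box, found in 24.5%, lay 83 to 79 bases before the start of Hbb-y, overlapping TGACCA, and 149 to 145 bases before that of Hbq1b. The SOX letters AACAAT or AACAAAG, found in 8% of promoters, lay 58 to 52 bases before the start of Hbb-y and, on the minus strand, 122 to 117 bases before that of Hba-x. These are matches of letters in 1 window and say nothing of binding in these cells.

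Values are log2 expression levels as the authors normalised them, with array medians between 5.66 and 5.89. A probe set's level is relative to itself across arrays. It was set against that of another gene only as a difference within an array, itself compared across arrays. The number of arrays limits the precision. The probe set of Adar, the targeted gene, was not called between knockout and control (-0.08 in Ter119- CD71+ and 0.05 in Ter119+ CD71+ cells, on the log2 scale, limma adjusted p = 0.951 and 0.973). The position of its probes relative to the floxed part was not used here, so this value does not check the genotype labels. The 6 measured of 8 erythroid lineage markers averaged between 9.96 and 11.20 in every group. In these bulk samples fewer cells of a type and less RNA per cell cannot be told apart.

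In the knockout, Hbb-bh1 was lower in both populations, Hba-x was lower in Ter119- CD71+ cells, and Hbq1b was higher in Ter119- CD71+ cells. Bcl11a, Sox6, Zbtb7a and Hbb-y passed the test in neither population. A gene was called where its adjusted p from limma, fitted over all 13 arrays and adjusted over all genes, was under 0.05. In Ter119- CD71+ cells 3 of the 7 genes were called, 1 higher and 2 lower, where 2.21% of all genes were called (1.35% higher and 0.858% lower). Among Ter119+ CD71+ cells 1 was called, lower, where 2.56% of all genes were (1.48% higher and 1.08% lower). The median difference of the 7 genes was -0.59 in the first population and 0.18 in the second, beside 0.00 and 0.02 over all genes.

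**Figure D1:**
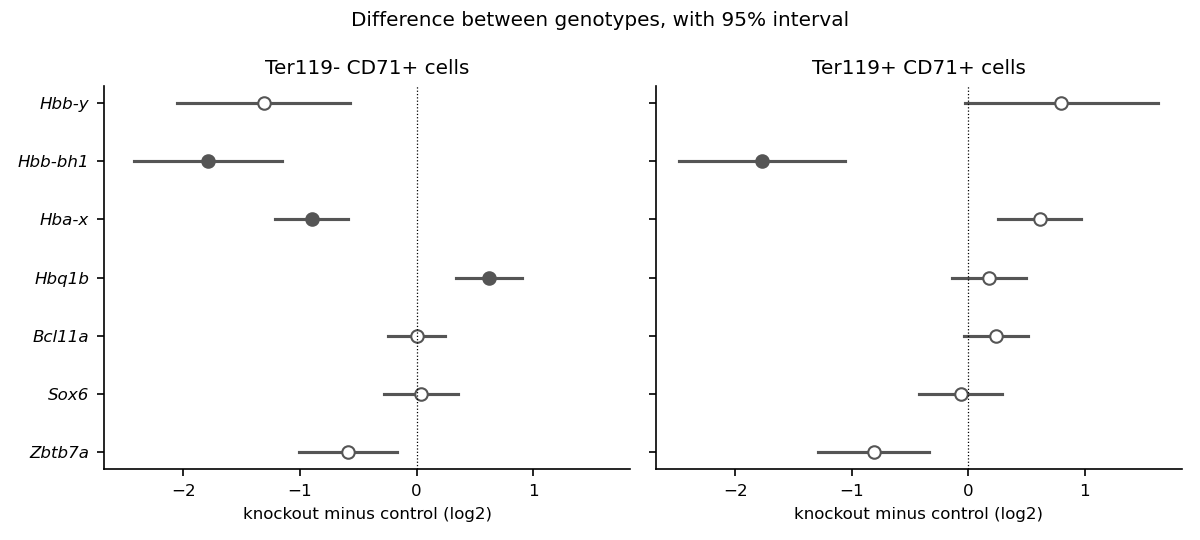
Knockout minus control in log2 units for each of the 7 genes, with 95% intervals, in Ter119- CD71+ cells (3 against 3 arrays) and Ter119+ CD71+ cells (2 against 3 arrays). Filled points passed the test: Hbb-bh1 is near -1.8 in both populations, whereas Hba-x and Hbb-y have opposite signs in them.

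Hbb-bh1 is the first of the beta-like globin genes to be transcribed in primitive cells. In control Ter119- CD71+ cells its log2 level was 8.99, 8.24 and 8.32 in embryos 2, 13 and 15. In knockout cells of that population it was 7.32, 5.99 and 6.86 in embryos 1, 10 and 11. Every knockout array lay below every control array, with embryo 10 the lowest of all 13. The difference was -1.79 (SE 0.29, limma adjusted p = 0.00677), which is 3.46-fold lower.

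The control levels of Hbb-bh1 in Ter119+ CD71+ cells were 11.29, 11.64 and 11.22 and the knockout levels were 9.34 and 9.89 in embryos 10 and 11. Again the groups did not overlap. The difference was -1.77 (SE 0.33, limma adjusted p = 0.0107), or 3.41-fold lower, and the difference between the knockout effects in the 2 populations was 0.02 with a 95% interval from -0.93 to 0.97. In control Ter119+ CD71med cells the levels were 12.20 and 11.74 in embryos 13 and 15. The order of group means was CD71med, control Ter119+ CD71+, knockout Ter119+ CD71+, control Ter119- CD71+ and knockout Ter119- CD71+, with no overlap between neighbours, although the first step of that order (0.59) was not called.

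The lower Hbb-bh1 in Ter119- CD71+ cells was called without each of the 6 arrays in turn (-2.09 to -1.42, limma adjusted p from 0.00329 to 0.0275). Adding the R26 EYFP genotype to the fit gave -1.19 (not called), and adding the mean of the myeloid markers gave -0.87 (limma adjusted p = 0.768). Embryo 1 is the only knockout with R26 EYFP ki/+, so the first of these fits sets its array alone against the controls. The myeloid means of knockout (5.72 to 6.96) and control (5.05 to 5.41) arrays do not overlap there. The size of the myeloid adjustment rests mostly on the knockout array of embryo 10 (6.96). For every gene, the second fit therefore cannot well separate myeloid signal from genotype in Ter119- CD71+ cells. For the Ter119+ CD71+ cells the call was lost without the array of knockout embryo 10 (-1.49, limma adjusted p = 0.164), which leaves 1 knockout array assumed to vary like the other groups. There it was also lost with array weights (-1.73, limma adjusted p = 0.166) and with the R26 EYFP covariate (-0.87). It stayed called with the myeloid covariate (-1.74, limma adjusted p = 0.000956). Embryo 1 gave no Ter119+ CD71+ array, so the R26 EYFP effect in that fit comes from the Ter119- CD71+ arrays.

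Hba-x encodes zeta globin, the embryonic partner of the beta-like chains, and its promoter holds the TGACCA nearest the start among those printed. In control Ter119- CD71+ cells its levels were 8.48, 8.36 and 8.22, and in knockout cells 7.42, 7.43 and 7.51. The groups did not overlap, and the 3 knockout arrays lay within 0.1 of each other. Hba-x fell by 0.90 on the log2 scale (SE 0.15, limma adjusted p = 0.00636), or 1.87-fold, and was called without each of the 6 arrays in turn (adjusted p from 0.0155 to 0.033). The call was lost with the R26 EYFP covariate (-0.94, limma adjusted p = 0.174) and the myeloid covariate (-0.84, adjusted p = 0.492), with little movement of the value itself.

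Control levels of Hba-x in Ter119+ CD71+ cells were 9.15, 9.41 and 8.73 and the knockout levels 9.60 and 9.82. The knockout pair lay above the 3 controls, the opposite of the order in Ter119- CD71+ cells. The difference of 0.61 (SE 0.16) was not called (limma adjusted p = 0.0721), but was without control embryo 13 (0.77, adjusted p = 0.0193). The difference between the 2 knockout effects was 1.51 (SE 0.22, unadjusted p = 9.09e-06 in limma), with an adjusted p of 0.0604, so it was not called. Over all genes 0.01% were called for this difference. Without the Ter119+ CD71+ array of control embryo 13 it was called (limma adjusted p = 0.0155), as it was when the dimmest genes were filtered out (adjusted p = 0.0487). In control CD71med cells the levels were 10.87 and 10.78, above all other arrays. In descending order of means, CD71med cells were followed by knockout and then control Ter119+ CD71+ cells, and by control and then knockout Ter119- CD71+ cells, with no overlap between neighbours.

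Hbb-y encodes epsilon-y globin, the beta-like chain that follows Hbb-bh1 in primitive cells. In control Ter119- CD71+ cells its levels were 8.17, 6.84 and 6.77, with embryo 2 well above the other two. In knockout cells they were 5.67, 6.16 and 6.02. The knockout arrays lay below all controls, yet the difference of -1.31 (SE 0.34) was not called (limma adjusted p = 0.0717), and it was -0.86 without control embryo 2. With array weights it was called (-1.04, limma adjusted p = 0.0234), in a fit that called 3151 genes against 441 in the main fit. That was 1 of 10 alternatives, and 0 of 6 omissions called it.

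Hbb-y levels in Ter119+ CD71+ cells were 9.74, 8.97 and 8.42 in control and 9.97 and 9.72 in knockout cells, so the groups overlapped. Control embryo 2 again had the highest control value. The difference was 0.80 (SE 0.39, limma adjusted p = 0.418). For Hbb-y the knockout effects in the 2 populations differed by 2.11 (SE 0.52), which was not called (limma adjusted p = 0.345). The CD71med levels were 11.81 and 11.72. The order of group means was that of Hba-x, with overlap only between the Ter119+ CD71+ groups. None of the 7 genes was called for the difference between the knockout effects, and 3 (Hba-x, Hbb-y and Hbq1b) had an unadjusted limma p under 0.05. The share of all genes at that unadjusted level was not counted.

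Some markers moved with these globin differences, and apart from the myeloid covariate above their part in the results was not tested. The primitive erythroid markers were Aqp3 and Aqp8, water channel genes. Their mean per array was 6.14 to 6.74 in control and 5.91 to 6.09 in knockout Ter119- CD71+ cells, and 6.59 to 6.72 in control and 6.25 to 6.43 in knockout Ter119+ CD71+ cells. Neither was called in either comparison (limma adjusted p = 0.173 for Aqp3 and 0.192 for Aqp8 in Ter119- CD71+ cells), although 1 of the 2 was called lower there without control embryo 2. The 6 erythroid lineage markers averaged 10.21 to 10.53 per array in control and 9.84 to 10.07 in knockout Ter119- CD71+ cells, and 10.98 to 11.26 against 10.64 to 10.80 in Ter119+ CD71+ cells, with 0 of 6 called in limma in either (5 and 4 at an unadjusted p under 0.05). Without control embryo 2, 4 of the 6 fell in Ter119- CD71+ cells. Over all genes 630 were called lower there without that array, against 171 with it. Without knockout embryo 1, 1 of the 6 fell in Ter119- CD71+ cells. In Ter119+ CD71+ cells 1 fell without control embryo 13. The 19 neutrophil and myeloid markers averaged 5.05 to 5.41 in control and 5.72 to 6.96 in knockout Ter119- CD71+ cells, with the highest value in embryo 10. Of the 3 knockout arrays there, that of embryo 10 had the lowest Hbb-bh1 (5.99) but the highest Hbb-y (6.16). Its Hba-x (7.43) lay between those of the other embryos (7.42 and 7.51). In that population 4 of the 19 rose, where 1.35% of all genes did. Among them was Mpo (2.44, limma adjusted p = 0.00614), which was called in all 6 omissions. The number that rose was 1 without control embryo 15, 2 without control embryo 13, and 6 without knockout embryo 1 or 11. The myeloid means in Ter119+ CD71+ cells were 5.19 to 5.36 in control and 5.22 to 5.43 in knockout cells, where the Hbb-bh1 difference was -1.77. The 11 hepatocyte markers averaged 6.14 to 6.29 in control and 5.72 to 6.12 in knockout Ter119- CD71+ cells, and 6.61 to 6.84 against 6.11 to 6.45 in Ter119+ CD71+ cells, with 0 and 1 called in limma (Apoa1, -0.60, kept in 1 of 5 omissions). Of the definitive erythroid markers 0 of 4 and 1 of 4 were called (Aqp1, -0.86 in Ter119+ CD71+ cells, kept in 1 of 5 omissions), and of 13 macrophage and 7 megakaryocyte markers 0 were called in limma in either population (3 and 2, and 1 and 4, at an unadjusted p under 0.05).

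**Figure D2:**
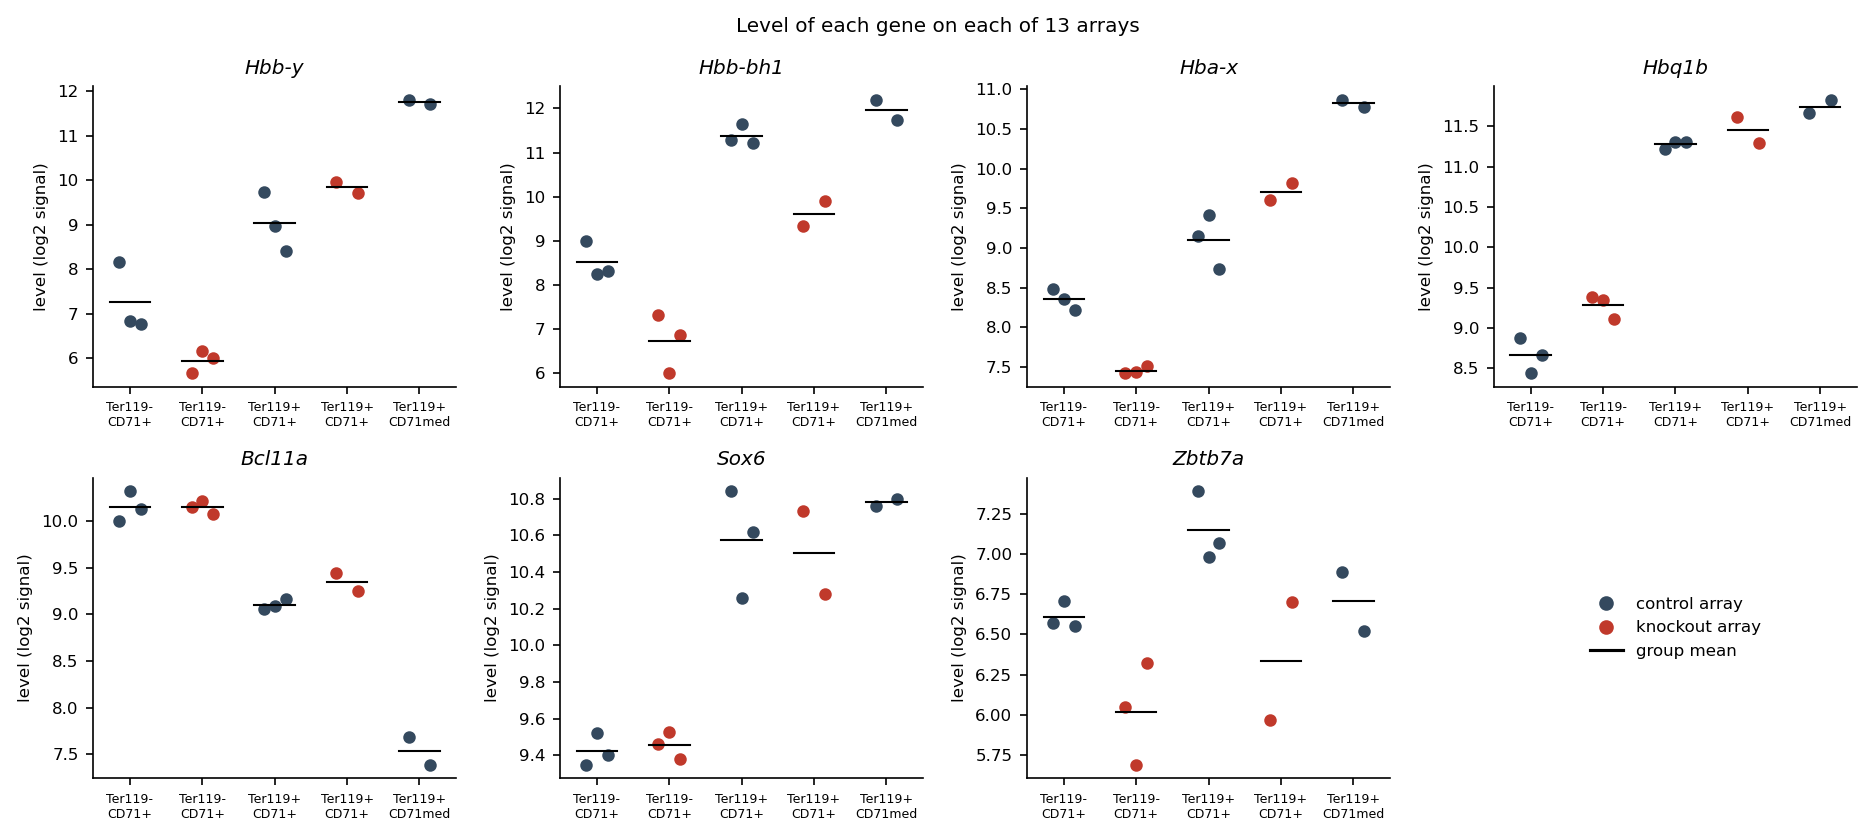
Log2 level of each gene on each of the 13 arrays, 1 panel per gene, by group on the horizontal axis. Points are arrays and bars are group means: the 3 embryonic globin genes span several log2 units, while Bcl11a runs the other way.

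Hbq1b encodes a theta-like globin. Its levels in control Ter119- CD71+ cells were 8.88, 8.44 and 8.67, and in knockout cells 9.39, 9.35 and 9.11. All knockout arrays lay above all controls, opposite in direction to the embryonic genes in the same arrays. Hbq1b rose by 0.62 (SE 0.13, limma adjusted p = 0.027), or 1.54-fold. The call was lost when either of knockout embryos 1 and 10, or either of control embryos 13 and 15, was left out (highest limma adjusted p = 0.147), with only the groups compared (adjusted p = 0.0621), and with the R26 EYFP (adjusted p = 0.26) and myeloid (adjusted p = 0.782) covariates.

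Hbq1b in Ter119+ CD71+ cells was at 11.22, 11.31 and 11.31 in control and 11.62 and 11.29 in knockout cells. These groups overlapped (0.18, SE 0.15, limma adjusted p = 0.734). The CD71med levels were 11.66 and 11.83. These were the highest of the 13 arrays, and in the order of group means the only overlapping neighbours were the Ter119+ CD71+ groups. Hbq1a, a similar copy, was measured by another probe set and was not called in Ter119- CD71+ cells (-0.17, SE 0.16, limma adjusted p = 0.768); how far the 2 probe sets read each other's transcripts was not tested.

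Bcl11a, the repressor whose loss derepresses embryonic globin genes in mouse definitive cells, was not called in Ter119- CD71+ cells. Its levels were 10, 10.32 and 10.13 in control and 10.15, 10.22 and 10.08 in knockout cells. The groups overlapped, and the difference was 0.00 (95% interval -0.24 to 0.25, limma adjusted p = 0.999). Its Ter119+ CD71+ levels were 9.06, 9.09 and 9.16 in control and 9.44 and 9.25 in knockout cells. Both knockout arrays lay above the controls, by 0.24 on average (95% interval -0.03 to 0.52, limma adjusted p = 0.493). In CD71med cells Bcl11a was at 7.69 and 7.39, below all other arrays. In the order of its group means only the Ter119- CD71+ groups overlapped.

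Sox6, an HMG-box factor that represses Hbb-y in definitive cells, was at 9.35, 9.52 and 9.40 in control and 9.46, 9.53 and 9.38 in knockout Ter119- CD71+ cells. The groups overlapped (0.04, 95% interval -0.28 to 0.35, limma adjusted p = 0.97). Among Ter119+ CD71+ cells it was at 10.84, 10.26 and 10.62 in control and 10.73 and 10.28 in knockout cells. Overlap was complete there too (-0.07, 95% interval -0.42 to 0.29, limma adjusted p = 0.941). The CD71med levels were 10.76 and 10.80. All arrays with Ter119+ cells lay above all arrays with Ter119- cells, and within each of those sets neighbouring groups overlapped.

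Zbtb7a, a zinc-finger repressor also needed for late erythroid maturation, was at 6.57, 6.71 and 6.55 in control and 6.05, 5.69 and 6.32 in knockout Ter119- CD71+ cells. The groups did not overlap, but the difference of -0.59 (SE 0.20) was not called (limma adjusted p = 0.162). It was called in 1 of 10 alternatives, array weights (-0.53, limma adjusted p = 0.019), which called 3151 genes against 441 in the main fit. It was called in 0 of 6 omissions, and was -0.16 with the myeloid covariate (limma adjusted p = 0.985). The Ter119+ CD71+ values were 7.39, 6.98 and 7.07 in control and 5.97 and 6.70 in knockout cells. Knockout embryo 10 was the lower of the pair, and the difference of -0.81 (SE 0.22) was not called (limma adjusted p = 0.0751). Each omission of a knockout array leaves 1: without embryo 11 it was called (-1.18, limma adjusted p = 0.0107), and without embryo 10 it was -0.44 (adjusted p = 0.609). The CD71med levels were 6.89 and 6.52, and of the neighbours in the order of its group means only control Ter119+ CD71+ and CD71med cells did not overlap.

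In the first control step the 3 embryonic globin transcripts rose and Bcl11a fell. From Ter119- CD71+ to Ter119+ CD71+ control cells 6 of the 7 genes were called, 5 higher and 1 lower, where 19% of all genes were called (7.27% higher and 11.7% lower). Hbb-bh1 rose by 2.87 (SE 0.29, limma adjusted p = 1.44e-05), or 7.31-fold. Hbq1b rose by 2.61 (adjusted p = 3.88e-08 in limma), Hbb-y by 1.78 (0.00186), Sox6 by 1.15 (8.24e-05) and Hba-x by 0.74 (0.0022). Bcl11a fell by 1.04 (SE 0.11, limma adjusted p = 2.46e-05). Zbtb7a was 0.54 higher, which was not called (limma adjusted p = 0.0777) except with only the groups compared (adjusted p = 0.0178) and under 2 other alternatives.

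From Ter119+ CD71+ to CD71med control cells 3 of the 7 were called, 2 higher and 1 lower, where 13.3% of all genes were (4.11% higher and 9.21% lower). Hbb-y rose by 2.72 (SE 0.39, limma adjusted p = 0.000762), or 6.59-fold. Hba-x rose by 1.73 (SE 0.16, limma adjusted p = 8.59e-05). Bcl11a fell by 1.57 (SE 0.13, limma adjusted p = 7.04e-05), whereas Hbb-bh1 (0.59), Hbq1b (0.47), Sox6 (0.20) and Zbtb7a (-0.44) were not called. Of 10 alternatives, 3 called Hbq1b higher (main limma adjusted p = 0.0528) and 1 called Hbb-bh1 higher. The larger control step was thus the first for Hbb-bh1 and the second for Hbb-y and Hba-x. The difference between the steps was not tested. Markers of other cells moved in the control steps too, and their part was not tested. Of the 11 hepatocyte markers 6 and 4 were called higher in the 2 steps and 0 lower (3 to 6 and 2 to 4 higher over omissions). Of the 7 megakaryocyte markers 3 and 1 were higher and 0 lower (2 to 4 and 0 to 2 higher over omissions). The primitive markers Aqp3 and Aqp8 were called in neither step.

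In the knockout, the step from Ter119- CD71+ to Ter119+ CD71+ cells had 6 of the 7 called, 5 higher and 1 lower, where 10.7% of all genes were (4.5% higher and 6.24% lower). Hbb-y rose by 3.89 (SE 0.39, limma adjusted p = 3.99e-05), or 14.8-fold. Hbb-bh1 rose by 2.89 (limma adjusted p = 0.000109), and Hba-x by 2.25 (3.01e-06). Hbq1b rose by 2.17 (limma adjusted p = 2.48e-06), Sox6 rose by 1.05 (0.00112) and Bcl11a fell by 0.80 (0.00124). Hbb-bh1 thus started lower in the knockout and rose by about the same amount as in controls. All member calls in the 3 steps held without each array in turn and under the other alternatives.

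**Figure D3:**
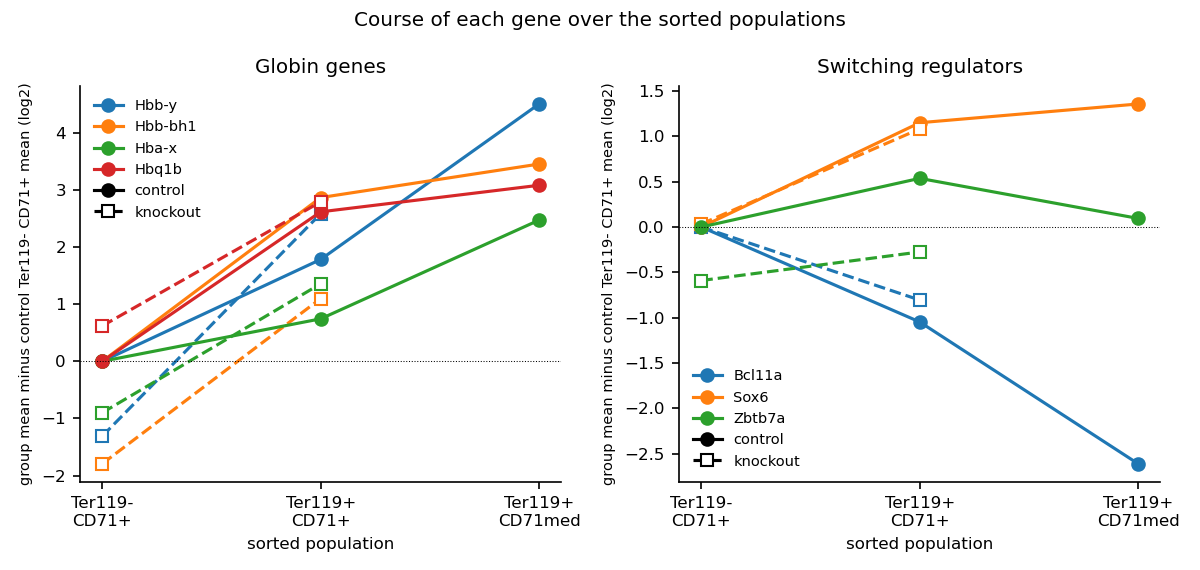
Group mean minus the control Ter119- CD71+ mean in log2 units for each gene across the populations, solid for control and dashed for knockout. Knockout Hbb-bh1 runs below control at both points, knockout Hba-x and Hbb-y cross from below to above, and Bcl11a declines in both.

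The group with the lowest Bcl11a, control CD71med cells, had the highest Hbb-y, Hbb-bh1 and Hba-x. In knockout Ter119- CD71+ cells Hbb-bh1 and Hba-x were lower while the differences of Bcl11a and Sox6 were 0.00 and 0.04. Zbtb7a differed by -0.59 there and by -0.81 in Ter119+ CD71+ cells, in both without overlap of the groups and without a call. Across the 13 arrays, Bcl11a had a Pearson r of -0.91 with Hbb-y, -0.91 with Hba-x, -0.84 with Hbb-bh1 and -0.82 with Hbq1b. Sox6, a repressor by its known role, had an r of 0.87 with Hbb-y, 0.84 with Hbb-bh1, 0.82 with Hba-x and 0.95 with Hbq1b. Zbtb7a had an r of 0.76 with Hbb-bh1, and 0.45, 0.44 and 0.36 with Hbb-y, Hba-x and Hbq1b. These 13 arrays share embryos and fall into groups by maturation, and each r spans those groups.

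Within an array, Hbb-bh1 minus Hbb-y and Hbb-bh1 minus Hba-x show how the genes shifted relative to each other, since any factor common to an array cancels. In Ter119+ CD71+ cells, Hbb-bh1 minus Hba-x was 2.14, 2.23 and 2.49 in control and -0.26 and 0.08 in knockout cells. The groups lay over 2 log2 units apart. Hbb-bh1 minus Hbb-y was 1.55, 2.67 and 2.80 in control and -0.63 and 0.17 in knockout cells of that population, also without overlap. Hbb-bh1 minus Hba-x in Ter119- CD71+ cells was 0.51, -0.13 and 0.10 in control and -0.09, -1.45 and -0.64 in knockout cells, so knockout embryo 1 lay among the controls. Hbb-bh1 minus Hbb-y there overlapped (0.82, 1.39 and 1.55 in control, 1.65, -0.17 and 0.85 in knockout cells). In control CD71med cells Hbb-bh1 minus Hbb-y was 0.39 and 0.02, also below the control Ter119+ CD71+ values and near the knockout ones. Hbb-bh1 minus Hba-x was 1.33 and 0.96 there, between the control and the knockout Ter119+ CD71+ values. The zero of these differences has no meaning, as it depends on the 2 probe sets. Both pairs hold Hbb-bh1 and follow from the levels given above, so they are no separate test.

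**Figure D4:**
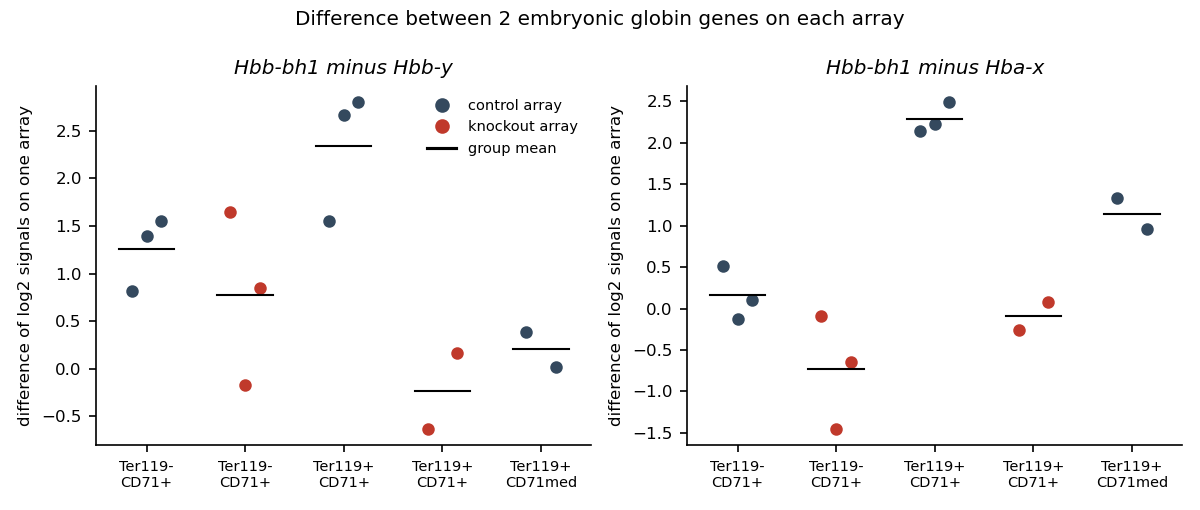
Within-array log2 difference of Hbb-bh1 minus Hbb-y and of Hbb-bh1 minus Hba-x by group, 1 point per array. In Ter119+ CD71+ cells all knockout points lie below all control points for both pairs, and the control CD71med points also lie below the control Ter119+ CD71+ points.

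The wider regulators, from lists chosen with earlier results of these data known, are counted here beside the 2.21% and 2.56% of all genes called in the 2 knockout comparisons. Nothing about the lists is read from a low count, or from a count at an unadjusted p, whose share over all genes was not counted. In Ter119- CD71+ cells 630 genes were called lower without control embryo 2, against 171 with all arrays. Omitting knockout embryo 11 leaves 1 knockout array of Ter119+ CD71+ cells. Of the 14 NuRD genes 0 were called in Ter119- CD71+ cells (2 at an unadjusted limma p under 0.05; 1 fell without control embryo 2) and 1 in Ter119+ CD71+ cells (1 higher and 3 lower without knockout embryo 11). That gene was Rbbp4, a histone-binding subunit (-0.96, limma adjusted p = 0.0243), whose call was lost without control embryo 2, control embryo 15 or knockout embryo 10 (highest adjusted p = 0.239). Of the 19 measured other repressors and corepressors of globin genes 0 were called in limma in either population (5 and 4 at an unadjusted p under 0.05), and 1 fell in Ter119+ CD71+ cells without knockout embryo 11. The 22 erythroid regulators and looping factors include activators and also repressors such as Klf3 and Bach1. Of these 22, 0 were called in Ter119- CD71+ cells (7 at an unadjusted limma p under 0.05, and 2 fell without control embryo 2). In Ter119+ CD71+ cells 3 were called. Nfe2, which binds the globin locus control regions, fell by 0.74 (limma adjusted p = 0.0107, but 0.148 without knockout embryo 10). Lyl1 fell by 0.63 (limma adjusted p = 0.0147, but up to 0.174 without control embryo 2 or knockout embryo 10). Cited2 rose by 0.56 (limma adjusted p = 0.0285) and was called in 1 of 5 omissions. All 4 of these calls were lost with the R26 EYFP covariate and with array weights.

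Of the 9 measured fetal-stage RNA-binding and heterochronic factors 0 were called in limma in either population, and 0 at an unadjusted p under 0.05. In the arm of the heme-regulated kinase, 1 of 6 genes was called in Ter119- CD71+ cells and 0 in Ter119+ CD71+ cells (3 at an unadjusted limma p under 0.05). Ddit3, a stress-response factor, rose by 1.18 (limma adjusted p = 0.00515) and was called in all 6 omissions, but not with the R26 EYFP or the myeloid covariate.

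Across maturation the calls of these lists are set beside the shares over all genes, 19% in the first control step, 13.3% in the second and 10.7% in the knockout step. From Ter119- CD71+ to Ter119+ CD71+ control cells 11 of the 19 other repressors fell and 0 rose, where 11.7% of all genes fell, and the list median was -0.38 beside 0.04. Without the Ter119- CD71+ array of control embryo 13 or the Ter119+ CD71+ array of control embryo 15 the number was 7. Nr2c1, an orphan nuclear receptor (TR2) that represses embryonic globin genes, fell by 1.49, and Bmi1, a Polycomb subunit, by 1.43. From Ter119+ CD71+ to CD71med cells 13 fell and 1 was called higher (in 1 of 5 omissions), but 8 fell without the Ter119+ CD71+ array of embryo 15 and 2 without its CD71med array. In the knockout step 4 of the 19 fell, and 2 did without either Ter119- CD71+ or Ter119+ CD71+ cells of embryo 10, or Ter119- CD71+ cells of embryo 11.

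Of the 22 erythroid regulators and looping factors, 9 rose and 1 fell in the first control step, and likewise 9 and 1 in the knockout step. Over all genes 7.27% and 4.5% rose in these steps. Over omissions 8 to 12 and 7 to 9 rose, and 1 to 2 fell in each. The gene that fell was Myb, a progenitor factor (-2.36 and -2.34), and Nfe2 rose by 1.97 and 1.59. Among the others that rose were Klf3 (0.85 in the first control step) and Bach1 (0.64 in the knockout step). Igf2bp1, an RNA-binding protein of fetal stages, fell by 2.16 and 1.39. Eif2ak1, the heme-regulated kinase itself, rose by 0.91 and 0.90. The calls of Nr2c1, Bmi1, Myb, Nfe2, Igf2bp1 and Eif2ak1 in these 2 steps held in limma in every omission. Of the 9 fetal-stage factors 2 fell in each of these steps, and 5 and 2 of the 6 genes of the kinase arm rose (3 in the first without the Ter119+ CD71+ array of control embryo 2). The 14 NuRD genes had 1 higher and 2 lower in the first control step, near the share over all genes, with 1 lower without the Ter119- CD71+ array of embryo 13 or the Ter119+ CD71+ array of embryo 2 or 15. In the knockout step 0 were called in limma (2 at an unadjusted p under 0.05), and 1 higher and 2 lower without the Ter119+ CD71+ array of embryo 11.

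In the second control step the counts of these shorter lists changed when 1 array was left out. Of the erythroid regulators and looping factors 3 were called higher and 1 lower. No omission kept 3 higher (1 to 2 higher and 0 to 2 lower), and Nfe2 (0.47) was called in 0 of 5 omissions. Of the NuRD genes 1 was called higher, Mta3 (0.46, in 0 of 5 omissions), and 3 lower, which became 1 without CD71med embryo 15. Of the fetal-stage factors 2 were called lower, and 0 without CD71med embryo 15. Of the kinase arm 2 were called higher, but 1 without any of the 3 Ter119+ CD71+ arrays and 0 without either CD71med array. Hbq1a rose by 1.61 and 1.39 in the 2 control steps and 1.21 in the knockout step, and Hbb-bh2, a beta-like gene, rose by 0.96 in the second control step.

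For each gene, the 3 others with the highest Pearson r across the 13 arrays were listed as a description. Hbb-y and Hba-x were each other's nearest (0.979), although Hbb-y lies on chromosome 7 and Hba-x on chromosome 11. Rc3h1 (0.957) and Rab30 (0.942) followed for Hbb-y, and Slc25a51 (0.947) and Rab11a (0.945) for Hba-x. Hbb-bh1 was nearest to H1f2 (0.987), Runx1t1 (0.985) and Btnl10 (0.983), and to neither of the other embryonic genes. For Hbq1b the nearest were Pir (0.985), Neil3 (0.984) and Plek2 (0.984). Bcl11a was nearest to Slc38a1 (0.992), Xpo4 (0.988) and Oxct1 (0.987), Sox6 to Tmod1 (0.982), St3gal1 (0.982) and Hipk1 (0.975), and Zbtb7a to Tex2 (0.984), Cmc2 (0.964) and Actr1a (0.949). The arrays share embryos and populations, as above.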

How the data were processed

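The 13 arrays measured total RNA of sorted mouse fetal liver cells. The authors deposited log2 values per probe set. The submitters' processing notes name RMA and also the mm9 build without its role; no RMA version is given in the sources used here. The table held 35556 probe sets, of which 21789 had 1 gene symbol, 1621 several and 12146 none in the platform annotation. Where a gene had several probe sets (999 genes) the one with the highest mean was kept, leaving 19938 genes. The adult globin genes listed matched no probe set with 1 gene symbol and were not analysed here. limma 3.58.1 in R 4.3.3 was fitted on 5 group means over all 13 arrays (8 residual and 5.56 prior degrees of freedom) with Benjamini-Hochberg adjustment over all genes. The fit was tested on simulated data. Named genes were the members, up to 4 called genes per list and comparison with the smallest adjusted p, and for each member the 3 genes most like it by Pearson r; Adar, Aqp3, Aqp8 and the Ter119- CD71+ value of Hbq1a were added after their values were seen. The members and lists were chosen with earlier results of these data known. Same-numbered arrays come from the same embryo: 9 such pairs had correlations of deviations from -0.225 to 0.35, and pairs of different embryos from -0.426 to 0.426. Alternatives were another normalisation, centring, a filter on dim genes, the mean of probe sets, an intensity trend, array weights, an embryo block, 2 covariates, only the groups compared and each array left out. Promoters are from RefSeq. P-values rest on the spread between arrays within groups, pooled over the 5 groups and moderated over all genes. In the main fit, arrays of the same embryo were treated as separate.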

Additional observations from a re-analysis of the deposited data

Results flagged for a closer look

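The knockout minus control difference of Hba-x, the embryonic alpha-like globin gene, had opposite signs in the 2 populations. Every knockout array lay below every control array in Ter119- CD71+ cells (-0.90). Every knockout array lay above every control array in Ter119+ CD71+ cells (0.61, not called). Hba-x was flagged by this lack of overlap, and the share of all genes that show it was not counted. In Ter119+ CD71+ cells the Adar1 and R26 EYFP genotypes cannot be told apart. The difference between the effects was 1.512 on the log2 scale (SE 0.22, limma adjusted p = 0.0604), so it did not pass the threshold over all genes. Over the omissions of 1 array each it ran from 1.33 to 1.668 with adjusted p from 0.0155 to 0.181.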

How the results depend on the processing

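Of 686 values of the 7 genes under alternatives, 635 kept direction and side of the threshold, 14 were no longer called, 13 became called and 24 changed sign, all of the last among uncalled values; the cause was not tested. In Ter119- CD71+ cells the number of the 7 genes called between knockout and control was 3, and became 5 with array weights, 0 with the R26 EYFP covariate and 0 with the myeloid covariate. In Ter119+ CD71+ cells it was 1, and became 0 with array weights and 0 with the R26 EYFP covariate; omissions of 1 array gave 0 to 2. For the difference between these effects it was 0, and 1 when the dimmest genes were filtered out; omissions gave 0 to 1. With the embryo as a replicate block the numbers were 3, 1 and 0, and the block changed no call; the Hbb-bh1 differences were -1.789 and -1.768. Signs changed for Bcl11a in Ter119- CD71+ cells (-0.027 with median centring, -0.001 with R26 EYFP, -0.139 with myeloid, -0.075 to 0.084 over omissions), Sox6 in Ter119- CD71+ (-0.085 with myeloid) and Ter119+ CD71+ cells (0.005 with quantile normalisation, -0.291 to 0.159 over omissions), and, for the difference between effects, Hbb-bh1 (-0.009 with median centring, -0.144 with array weights, -0.867 with myeloid, -0.349 to 0.319 over omissions), Sox6 (0.014 with myeloid, -0.329 to 0.122) and Zbtb7a (-0.593 to 0.143). Zbtb7a in the knockout step was -0.052 with myeloid and -0.056 to 0.681 over omissions. Over all genes, 441 called in Ter119- CD71+ cells became 286 with median centring, 3151 with array weights, 33 with R26 EYFP and 25 with myeloid, and 510 in Ter119+ CD71+ cells became 116 with only the groups compared, 128 with array weights and 17 with R26 EYFP. The 2 called for the difference became 1 under quantile normalisation, median centring, only the groups compared, array weights and myeloid. The first control step went from 3789 to 6349 with array weights, the second from 2656 to 1477 with myeloid, and the knockout step from 2143 to 1007 with array weights and 894 with myeloid. Over omissions of 1 array the all-gene counts were 135 (without control embryo 15) to 1006 (without control embryo 2) in Ter119- CD71+ cells, 162 (without knockout embryo 10) to 1546 (without knockout embryo 11) in Ter119+ CD71+ cells, 1 to 12 (without Ter119+ CD71+ knockout embryo 11) for the difference, 2884 to 3626 in the first control step, 867 (without CD71med embryo 15) to 2892 in the second, and 1156 to 3357 (without Ter119+ CD71+ embryos 10 and 11, each in turn) in the knockout step. 2 knockout Ter119+ CD71+ arrays and 2 CD71med arrays limit those groups. The knockout differences fitted with the R26 EYFP covariate depend, in both populations, on the 1 array of knockout embryo 1. The size of the myeloid adjustment rests mostly on the Ter119- CD71+ array of knockout embryo 10, and in that population the myeloid means of knockout and control arrays do not overlap.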
